A study of Drosophila melanogaster with 2 samples.

Results

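Chromosome 4 of Drosophila melanogaster was described along its length in H3K9me2 ChIP-seq profiles of whole larvae of the third instar. It was divided from base 1 to the last tag into 4407 bins of 300 bp, and the 4037 bins that EHMTDD1 or EHMT+ covered with 1 tag or more are its members, among 370733 such bins in all. The others lay on the 5 large arms (2L, 2R, 3L, 3R and X), where 1 Mb at the centromeric end was left out. A tag is a sequenced read that the authors extended to 300 bp, and it counts once for each bin that it touches. The genotype difference did not enter this choice.

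The mutant library came from larvae carrying the allele EHMTDD1, a deletion that removes the translational start site of EHMT. The control library came from EHMT+ larvae, in which the same P-element had been excised precisely. The labels name these libraries EHMT-KO and wild type. Each allele is a single excision line, and the sex of the larvae and the number pooled are not given in the sources used here. All larvae were raised on the same medium, and both preparations used the same antibody. There was 1 library per genotype and no input library was used, so the differences between genotypes have no replicate check and no p-value was computed. The 95% intervals of ratios cover counting error only, and those of medians reflect the spread over bins. Neither kind covers the variation between larvae.

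Chromosome 4, the dot chromosome, is the smallest chromosome of this fly and is known for combining opposite properties. It is packed to a large extent as heterochromatin, rich in repeats, bound by the heterochromatin protein HP1a and marked by methylated H3K9, yet its distal part carries active genes. Several enzymes write this mark in flies: Su(var)3-9 acts mainly in pericentric heterochromatin, eggless (the fly SETDB1) is known for H3K9 methylation on chromosome 4, and EHMT (G9a) is best known for H3K9 dimethylation in euchromatin. The RefSeq table of Release 6 lists 114 genes on chromosome 4, of which 80 code for proteins. Their positions in the build of the tags, Release 5, were not used, so no gene is placed on the regions below and the deletion in EHMT was not checked in the tags. Coordinates are those of Release 5, counted from 1.

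Chromosome 4 had a much smaller excess of H3K9me2 tags over the arms in the mutant than in the control. A median bin had 27.0 tags in EHMTDD1 and 64.0 tags in EHMT+. On the 5 arms the medians were 29.0 tags in EHMTDD1 and 29.0 tags in EHMT+. Per kb of bins with a tag, chromosome 4 had 69.6 tags in EHMTDD1 and 113 tags in EHMT+, against 53.5 and 53.3 tags per kb on the arms, given in the same order. The density of chromosome 4 was therefore 1.30 times that of the arms in EHMTDD1 (95% interval 1.29 to 1.31, exact conditional binomial) and 2.12 times in EHMT+ (2.11 to 2.13). Its share of all tags was 1.20% in EHMTDD1 and 1.94% in EHMT+, with 7043913 tags in each library. The ratio of EHMT+ to EHMTDD1 tags was 1.62 (1.61 to 1.64) on chromosome 4, while on the 5 arms it lay between 0.964 on 2R and 1.03 on X. Whole larvae were profiled, so fewer cells with the mark and less of the mark per cell cannot be told apart.

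The level of a bin on chromosome 4 was also far more uneven in the mutant. The SD over its bins was 1.07 times the mean in EHMTDD1 and 0.492 times the mean in EHMT+, whereas on the arms these values were 0.663 in EHMTDD1 and 0.484 in EHMT+. The top 10% of chromosome 4 bins held 35.0% of the summed bin counts in EHMTDD1 and 19.5% in EHMT+. At the low end, 1118 of the 4037 bins had at most 10 tags in EHMTDD1 and 146 had so few in EHMT+. At the high end, 414 bins reached 100 tags in EHMTDD1 and 686 did in EHMT+.

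All log2 ratios are of EHMT+ over EHMTDD1 with 1 added to both counts, so that a positive value means fewer tags in EHMTDD1. Over the 4037 bins the median log2 ratio was 1.07 (1.00 to 1.13, order statistics of bins that share tags with their neighbours). The 25th and 75th percentiles were 0.18 and 2.38. The distribution was broad, with an SD of 1.36, where counting error alone would give about 0.50 (Poisson counts). On the arms the median was 0.00 and the SD 0.87. In the 1 Mb at the centromeric ends, left out of the arms, the median was 0.25. The SD there was 1.25, so a broad spread was not particular to chromosome 4. Of the chromosome 4 bins, 1121 (27.8%) had a log2 ratio from -0.5 to 0.5. In steps of 0.25, the commonest class on chromosome 4 lay between 0.00 and 0.25 and held 8.22% of its bins. From 2 to 3 a broad shoulder followed, with 4.38% to 5.35% of the bins per step, while on the arms these 4 steps held 0.490% to 1.18%. Chromosome 4 thus held both bins near equality and many bins with a several-fold difference.

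**Figure D1:**
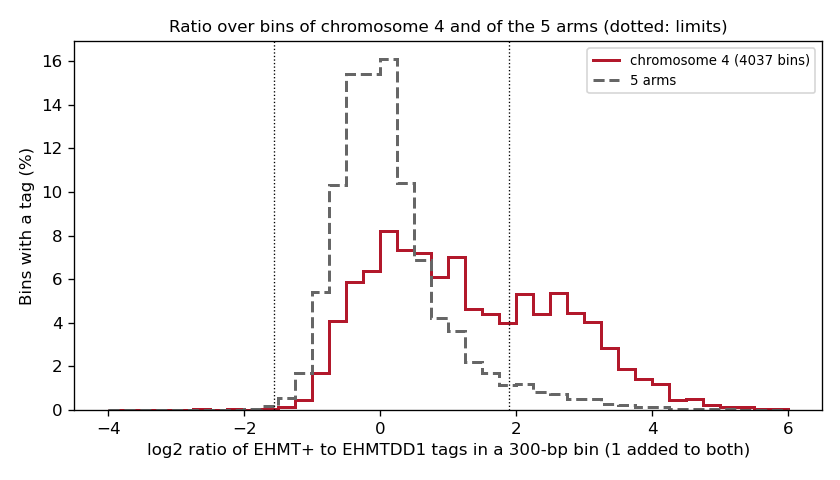
Share of bins with a tag (%) by the log2 ratio of EHMT+ to EHMTDD1 tags, in steps of 0.25, for chromosome 4 (solid line, 4037 bins) and the 5 arms (dashed line). The dotted lines are the limits of -1.56 and 1.90, and the chromosome 4 line has a shoulder from 2 to 3 where the arms have 0.490% to 1.18% per step.

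Loss of methylation bins (LOMBs) were bins whose log2 ratio exceeded the mean plus 2 SD over the bins of the arms and chromosome 4, that is 1.90 or 3.74-fold. The paper, from which the term is taken, also used 2 SD, but its limit was a higher fold difference. The LOMBs here are therefore not the paper's set. On chromosome 4, 1355 bins (33.6%) were LOMBs, against 5.37% of all bins with a tag. The median LOMB of chromosome 4 had 7.00 tags in EHMTDD1 and 58.0 tags in EHMT+. Thus the EHMT+ count in these bins was near the 64.0 tags of all chromosome 4 bins. At least 20 EHMT+ tags were present in 1276 of the 1355 LOMBs, so few of them had a sparse EHMT+ count. Their EHMTDD1 counts were low, as the limit requires. Below the lower limit, a log2 ratio of -1.56, lay 8 bins (0.198%), against 0.243% of all bins. These 8 bins held few tags and 0 were left when a minimum of 20 tags, summed over the libraries, was set.

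In blocks of 100 kb from the proximal end, the ratios of EHMT+ to EHMTDD1 tags were highest in the proximal part. The block from 100 to 200 kb had a median of 19.0 tags per bin in EHMTDD1 and 63.0 in EHMT+, with 5698 tags in EHMTDD1 and 10955 in EHMT+ in total. The next block, from 200 to 300 kb, had 17.0 tags per bin in EHMTDD1 and 72.0 in EHMT+, the highest ratio of all 14 blocks, 2.26 (2.19 to 2.34) by tag totals, and 153 LOMBs among 331 bins (46.2%). From there the ratio of tag totals was 1.65 at 300 to 400 kb, 1.42 at 400 to 500 kb, 1.57 at 500 to 600 kb and 1.47 at 600 to 700 kb. It was lowest among the well covered blocks at 700 to 800 kb, where the median bin had 39.5 tags in EHMTDD1 and 71.5 in EHMT+ and the ratio was 1.32 (1.29 to 1.36). It then was 1.48 at 800 to 900 kb, 1.58 at 900 to 1000 kb, 1.82 at 1000 to 1100 kb, 1.67 at 1100 to 1200 kb and 1.68 at 1200 to 1300 kb. The median EHMT+ level moved less between these blocks, from 56.0 to 77.0 tags per bin outside the outermost block at each end, and it did not order the blocks as the ratio did.

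The ends of the chromosome were treated separately. The proximal 200 kb had a median of 16.0 tags per bin in EHMTDD1 and 56.0 in EHMT+, with a median log2 ratio of 1.43 (1.18 to 1.58). The distal 200 kb had 25.0 tags per bin in EHMTDD1 and 63.0 in EHMT+, with a median log2 ratio of 1.04 (0.89 to 1.17). The part between them had 29.0 tags in EHMTDD1 and 65 in EHMT+ and a median log2 ratio of 1.03 (0.97 to 1.10). The interval of the proximal part lies above those of the other parts, but it treats bins as independent, which they are not. With each tag counted once by its midpoint, the medians were nearly equal, 1.58 in the proximal and 1.49 in the distal 200 kb. The proximal 60 kb were nearly empty, with 67 tags in EHMTDD1 and 168 in EHMT+ and only 46 of 200 bins with a tag.

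The last 42 kb, from 1280 kb to the last tag at base 1322004, went the other way. They held 689 tags in EHMTDD1 and 483 tags in EHMT+, a ratio of 0.701 (0.623 to 0.789), and their median log2 ratio was -0.51. There were 0 LOMBs among their 38 bins with a tag. These bins were sparse, with a median of 6.50 tags in EHMTDD1 and 5 in EHMT+, and the other bins of this end, out of 140, had no tag. When this end was set aside, the rest of the distal 200 kb had a median log2 ratio of 1.13 (1.00 to 1.30).

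**Figure D2:**
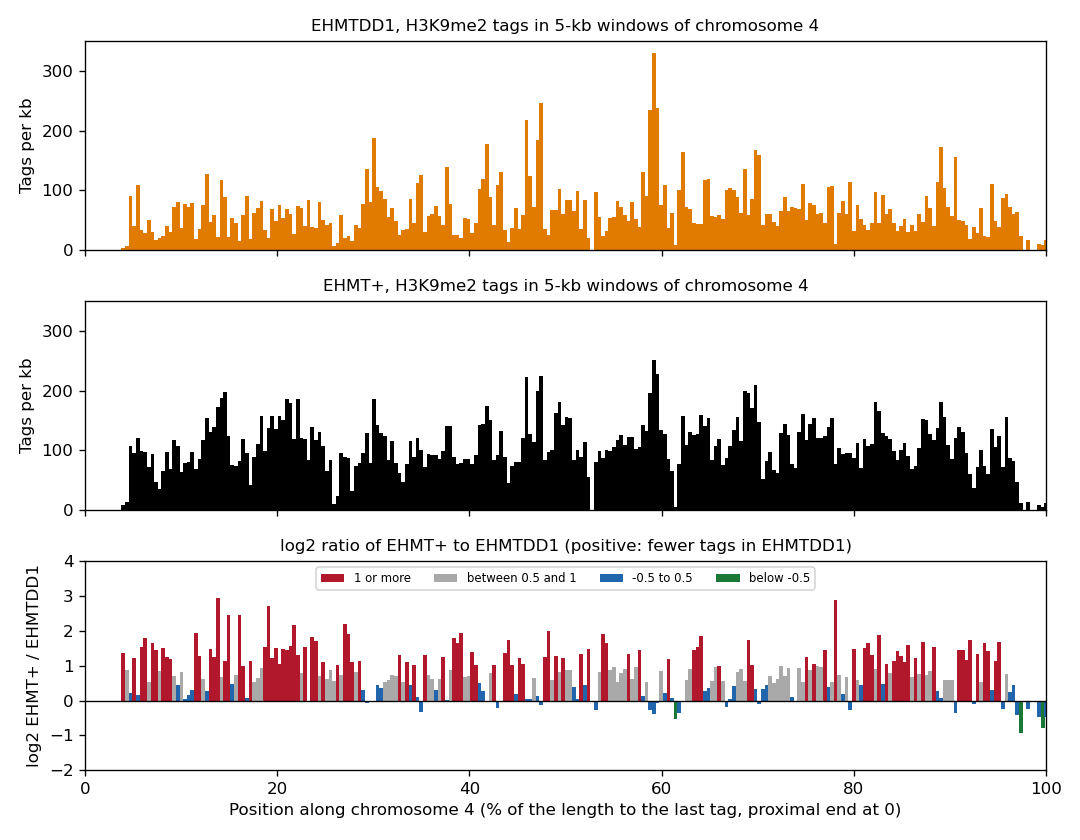
H3K9me2 tags per kb in 5-kb windows of EHMTDD1 (top) and EHMT+ (middle) and the log2 ratio of EHMT+ to EHMTDD1 (bottom) along chromosome 4, in % of the length from base 1 to the last tag; 251 windows with a sum of 40 tags or more are drawn. Losing windows (1 or more) are spread along the chromosome up to base 1260000, and 2 of the 3 windows below -0.5 lie at the distal end.

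On a finer scale, tags were counted once, by their midpoint, in windows of 5 kb, of which 251 of 265 reached a sum of 40 tags over EHMTDD1 and EHMT+. In 98 windows (39.0%) the log2 ratio was 1 or more, which is called losing here, against 1.72% of all windows. Here all windows are those of chromosome 4 and of the arms without the 1 Mb at the centromeric end. In 71 windows (28.3%) it was from -0.5 to 0.5, called keeping, against 89.0% of all windows. In 3 windows (1.20%) it was below -0.5, against 2.85% of all windows, and 79 windows lay between losing and keeping. A losing window had a median of 184 tags in EHMTDD1 and 493 in EHMT+. A keeping window had a median of 501 tags in EHMTDD1 and 540 in EHMT+. The EHMT+ levels of the losing and the keeping windows were thus close, and their EHMTDD1 levels differed. Across the 251 windows Spearman's rho of the log2 ratio was -0.67 with the EHMTDD1 count and 0.00 with the EHMT+ count, given as a description because each count is part of the ratio.

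**Figure D3:**
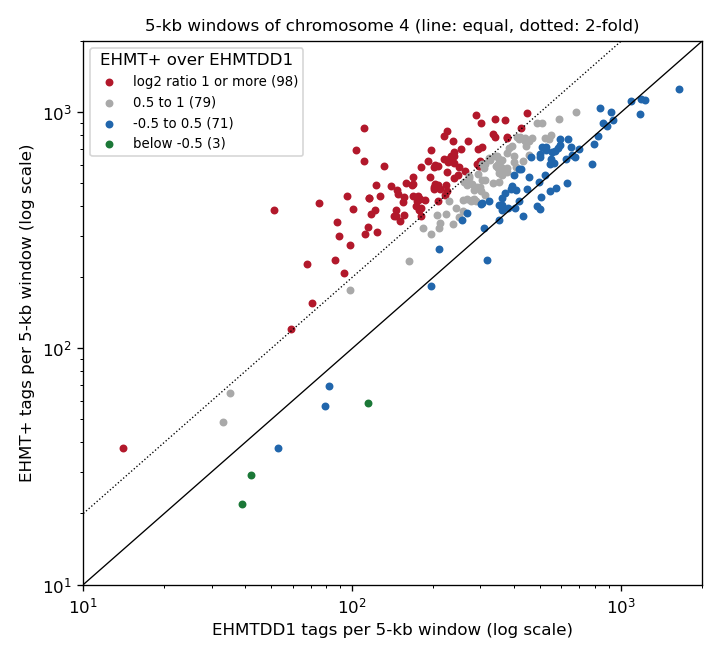
Tags per 5-kb window of chromosome 4 in EHMTDD1 (x axis, log scale) and EHMT+ (y axis, log scale), coloured by the log2 ratio of EHMT+ to EHMTDD1, with equality (solid line) and a 2-fold difference (dotted line). The 98 losing windows lie to the left of the 71 keeping windows at a given EHMT+ count, as the classes require, and the bulk of both covers a similar range of EHMT+ tags.

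Windows of the arms with EHMT+ counts in the middle range of chromosome 4 had nearly equal median counts in both genotypes. The arms held 1099 windows whose EHMT+ count was within the quartiles of chromosome 4, 415 to 665 tags. Their medians were 466 tags in EHMTDD1 and 466 tags in EHMT+, their median log2 ratio was 0.02 and 2.82% were losing. They lay towards the low end of this range, as the 95th percentile of EHMT+ over all arm windows was 427 tags. The 125 windows of chromosome 4 in the same range had medians of 293 tags in EHMTDD1 and 532 in EHMT+, a median log2 ratio of 0.88, and 40.8% were losing. Within the pericentric 1 Mb of the 5 arms, where H3K9me2 is also high, a median bin had 33.0 tags in EHMTDD1 and 46.0 in EHMT+, with 15.4% of bins above the limit for LOMBs.

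Among the 300-bp bins of chromosome 4, those with a low EHMT+ level had somewhat larger ratios (Spearman's rho -0.17, given as a description), whereas over 5-kb windows rho was 0.00. Bins were put in 5 classes of nearly equal size by EHMT+ tags. The lowest class, with 0 to 40 EHMT+ tags, had medians of 6 tags in EHMTDD1 and 28.0 in EHMT+, and 42.0% were LOMBs. The middle class, with 58 to 72 EHMT+ tags, had medians of 28.0 tags in EHMTDD1 and 65 in EHMT+, and 38.1% were LOMBs. The highest class, with 96 to 191 EHMT+ tags, had medians of 79.0 tags in EHMTDD1 and 113 in EHMT+, and 20.2% were LOMBs. Their median log2 ratios were 1.58, 1.20 and 0.55, from the lowest to the highest of these levels. In the classes with 41 to 57 and 73 to 95 EHMT+ tags, 39.1% and 28.1% were LOMBs. LOMBs were thus found in each of the 5 classes.

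Tags of the plus and of the minus strand gave the same picture. They come from the same libraries, so this bears on tag sampling and not on the genotypes. The median log2 ratio over the 251 windows was 0.80 for plus-strand and 0.79 for minus-strand tags, and Pearson's r between the strands was 0.90. In 97 of the 98 losing windows both strands had a log2 ratio above 0.5. The spread between windows, an SD of 0.67, was larger than the 0.13 that counting error alone would give, and larger than on the arms, where the SD was 0.34.

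Losing and keeping windows alternated over short distances. Windows 5 kb apart had a Pearson r of 0.27 for the log2 ratio and 0.61 for the log2 EHMT+ count, over 247 pairs. At 10 kb these values were 0.13 and 0.31, and at 20 kb 0.04 and 0.15. The EHMT+ level thus ran on from window to window further than the ratio did. Sparse windows near both ends are among these pairs, and their part in the EHMT+ values was not tested. Runs of LOMBs were separated by a median of 1200 bp.

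Stretches of at least 3 consecutive losing windows (15 kb or more) were found at 10 places and covered 200 kb of chromosome 4, or 15.1% of its length. On the arms the same rule found 5 stretches covering 85 kb, or 0.0746% of their length. The 10 stretches held 7851 tags in EHMTDD1 and 22481 in EHMT+, a ratio of 2.86 (2.79 to 2.94). In tags per kb they had 39.3 in EHMTDD1 and 112 in EHMT+. In EHMTDD1 they were thus below the 53.5 tags per kb of the arms, while in EHMT+ they were close to the chromosome 4 density of 113. The stretches were chosen by their ratio, so the choice sets the low EHMTDD1 density in large part.

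The longest losing stretch, chr4:245001-295000, was 50 kb with 2640 tags in EHMTDD1 and 7538 in EHMT+, a ratio of 2.86 (2.73 to 2.99). All of its 10 windows had a log2 ratio from 1.06 to 2.73, and 95 of its 166 bins were LOMBs. The next was chr4:1110001-1135000, with 993 tags in EHMTDD1 and 2419 in EHMT+, and a lower ratio of 2.44 (2.26 to 2.63). At chr4:1200001-1220000 there were 794 tags in EHMTDD1 and 2122 in EHMT+, a ratio of 2.67 (2.46 to 2.90).

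The other 7 were 15 kb each, and 5 of them lay within the first 600 kb. The stretch with the highest ratio of all 10, chr4:355001-370000, had 282 tags in EHMTDD1 and 1032 in EHMT+, a ratio of 3.66 (3.20 to 4.19). Nearly as high were chr4:170001-185000, with 638 tags in EHMTDD1 and 2217 in EHMT+, and chr4:505001-520000, with 350 and 1216 tags in that order, each with a ratio of 3.47. The stretch at chr4:170001-185000 also had the largest share of LOMBs, 35 of 50 bins (70.0%). The 2 stretches at chr4:105001-120000 and chr4:575001-590000 both had a ratio of 2.48, with 466 and 417 tags in EHMTDD1 and 1154 and 1035 tags in EHMT+. Further distal, chr4:835001-850000 had 667 tags in EHMTDD1 and 2063 in EHMT+, a ratio of 3.09, and chr4:1070001-1085000 had 604 and 1685 tags, a ratio of 2.79. Even in these stretches single bins kept their tags, since in each of the 10 the lowest bin had a log2 ratio of 0.13 or less.

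Single windows reached larger ratios than the stretches. The highest was at chr4:180001-185000, with 111 tags in EHMTDD1 and 861 in EHMT+, a ratio of 7.76 (6.36 to 9.54). It was followed by chr4:1030001-1035000, with 51 tags in EHMTDD1 and 384 in EHMT+, a ratio of 7.53 (5.61 to 10.3), which stood alone between windows of log2 ratio 0.52 and 0.73. The windows at chr4:250001-255000, chr4:195001-200000 and chr4:210001-215000 had ratios of 6.69, 5.59 and 5.52. Of the 5 windows with the highest ratio, 4 thus lay between 180 and 255 kb.

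Stretches that kept their tags, with at least 3 consecutive windows at a log2 ratio of 0.5 or less, were found at 9 places and covered 165 kb. Such stretches were not counted on the arms. Keeping windows were 28.3% of the windows of chromosome 4 and 89.0% of all windows, so keeping was the rarer state here. Together they held 17176 tags in EHMTDD1 and 17667 in EHMT+, a ratio of 1.03 (1.01 to 1.05). Their density was 104 tags per kb in EHMTDD1 and 107 in EHMT+. In EHMT+ this is close to the 112 tags per kb of the losing stretches, and in EHMTDD1 it is far above their 39.3. LOMBs made up 12.2% of the bins in the keeping stretches (59 of 482) and 53.5% in the losing stretches (356 of 665), values that the choice of the stretches sets in large part. Over all bins with a tag the share was 5.37%, below that of the keeping stretches.

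The longest keeping stretch was chr4:380001-410000, 30 kb with 3427 tags in EHMTDD1 and 3805 in EHMT+, a ratio of 1.11 (1.06 to 1.16). The densest was chr4:775001-790000, where EHMTDD1 had more tags, 4012 in EHMTDD1 and 3376 in EHMT+, a ratio of 0.841 (0.804 to 0.881). Its middle window, chr4:780001-785000, had the highest count of any window of the chromosome in both libraries, 1649 tags in EHMTDD1 and 1258 in EHMT+. The window ranking next by EHMT+ count adjoined it, with 1186 tags in EHMTDD1 and 1137 in EHMT+. The third in this order was chr4:625001-630000, with 1230 tags in EHMTDD1 and 1125 in EHMT+. The 3 windows with the highest EHMT+ count thus each had more tags in EHMTDD1. For chr4:785001-790000 the interval of the ratio included 1 (0.883 to 1.04). The window next in rank, chr4:605001-610000, went the other way, with 1091 tags in EHMTDD1 and 1112 in EHMT+.

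The other keeping stretches had ratios from 0.684 to 1.16. Those at chr4:135001-150000, chr4:540001-555000, chr4:880001-895000 and chr4:920001-940000 had somewhat fewer tags in EHMTDD1, with ratios of 1.13, 1.16, 1.08 and 1.14. At chr4:805001-825000 there were 1671 tags in EHMTDD1 and 1532 in EHMT+, a ratio of 0.917 (0.855 to 0.983). At chr4:1270001-1290000 there were 1097 tags in EHMTDD1 and 1141 in EHMT+, a ratio of 1.04 whose interval (0.957 to 1.13) includes 1. This total joined windows of opposite direction, with log2 ratios of 0.25, 0.44, -0.42 and -0.94, and 11 of its 43 bins (25.6%) were LOMBs, the largest share among the 9 keeping stretches. The most distal one, from base 1310001 to the last tag, was sparse, with 171 tags in EHMTDD1 and 117 in EHMT+.

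The 3 windows with a log2 ratio below -0.5 all held few tags. At chr4:1285001-1290000 there were 114 tags in EHMTDD1 and 59 in EHMT+, at chr4:1315001-1320000 39 and 22 tags, and at chr4:810001-815000 42 and 29 tags, in the same order. The interval of the last includes a ratio of 1 (0.415 to 1.13). All 3 had fewer EHMT+ tags than the 5th percentile over windows, 196 tags.

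At the scale of single bins, the 1355 LOMBs of chromosome 4 formed 459 runs of consecutive bins, of which 128 (27.9%) had at least 4 bins. On the arms 738 of 11124 runs (6.63%) were that long. LOMBs that stood alone were 33.8% of the runs on chromosome 4 and 62.7% on the arms. Neighbouring bins share tags, so runs arise in part from the counting.

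The longest run, chr4:179101-185700, spanned 22 bins with 142 tags in EHMTDD1 and 1163 in EHMT+. Within it a bin had 6 to 20 tags in EHMTDD1 and 70 to 148 in EHMT+. The bin before the run had 71 tags in EHMTDD1 and 119 in EHMT+, and the bin after it 38 and 90 tags, while 2 bins after it there were 98 tags in EHMTDD1 and 81 in EHMT+. The EHMTDD1 count thus differed several-fold between adjoining bins, while the EHMT+ count did not.

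The 2 next longest runs had 14 bins each. At chr4:299101-303300 there were 47 tags in EHMTDD1 and 422 in EHMT+, a ratio of 8.98 (6.63 to 12.4). At chr4:708001-712200 there were 41 tags in EHMTDD1 and 281 in EHMT+, a ratio of 6.85 (4.93 to 9.76). A run of 12 bins at chr4:250201-253800 had 45 tags in EHMTDD1 and 462 in EHMT+, a ratio of 10.3 (7.55 to 14.3), and lay in the longest losing stretch. The first of the runs of 11 bins, chr4:260101-263400, had 42 tags in EHMTDD1 and 378 in EHMT+, a ratio of 9.0 (6.53 to 12.7), in the same stretch.

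**Figure D4:**
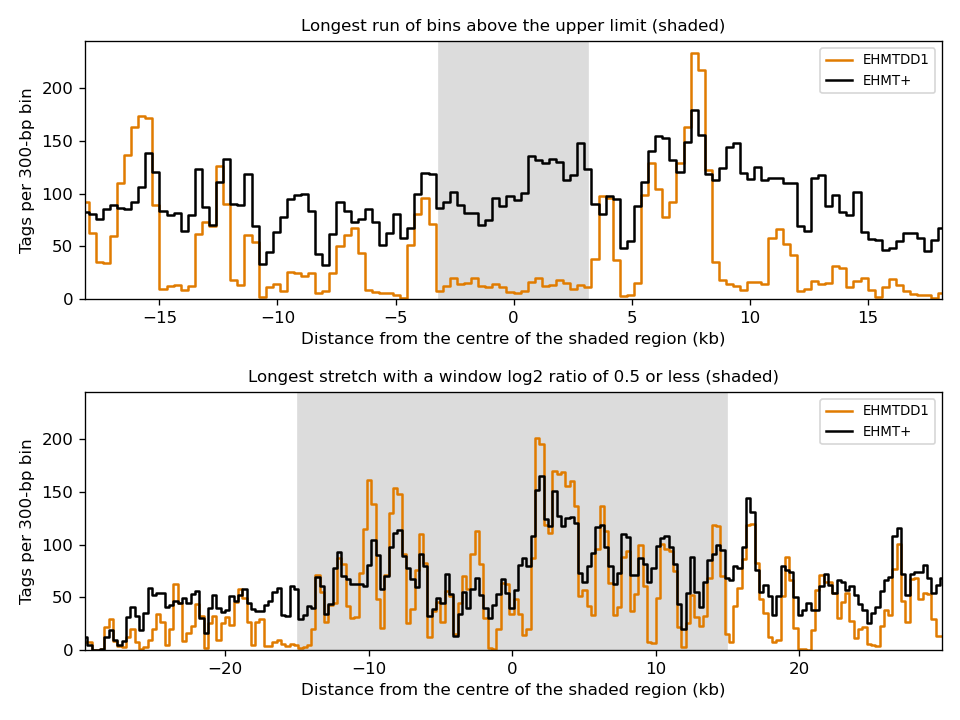
Tags per 300-bp bin in EHMTDD1 (orange) and EHMT+ (black) by distance (kb) from the centre of the longest run of LOMBs (top, shaded, 22 bins) and of the longest keeping stretch (bottom, shaded, 30 kb). In the shaded run every bin has 6 to 20 tags in EHMTDD1 and 70 to 148 in EHMT+, whereas 11 of the 100 bins of the keeping stretch are LOMBs and EHMTDD1 exceeds EHMT+ in others.

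Around the 128 runs of at least 4 LOMBs, the median EHMT+ level stayed between 59.0 and 69 tags. Bins inside these runs had a median of 7.00 tags in EHMTDD1 and 59.0 in EHMT+. The bins ending 0.6 kb outside had a median of 48.0 tags in EHMTDD1 and 69 in EHMT+, the smallest difference within 3 kb of the edges. At 1.8 kb the medians were 19.0 tags in EHMTDD1 and 64.5 in EHMT+, and at 3 kb 23.0 tags in EHMTDD1 and 61.0 in EHMT+. The runs were chosen by the ratio and end where a bin no longer exceeds the limit, so the choice sets the values inside them and, in part, those just outside. Runs of LOMBs were a median of 1200 bp apart, so bins further out can lie in a neighbouring run.

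**Figure D5:**
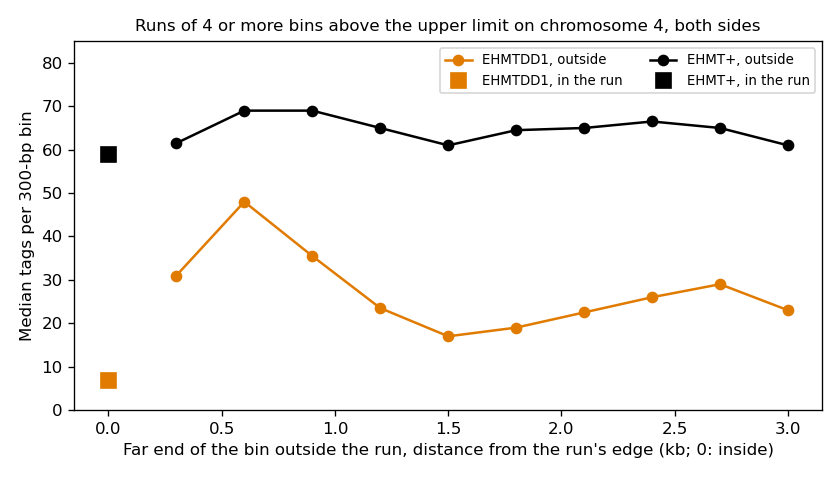
Median tags per 300-bp bin inside the 128 runs of at least 4 LOMBs on chromosome 4 (squares, at 0) and in bins outside them, both sides together, by the distance (kb) of the bin's far end from the run's edge (circles), for EHMTDD1 (orange) and EHMT+ (black). EHMTDD1 has 7.00 tags inside and 48.0 tags at 0.6 kb, whereas EHMT+ stays between 59.0 and 69 tags. Bins outside a run can lie in a neighbouring run.

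Places without any LOMB between neighbouring runs of LOMBs were short. The ends of the chromosome, beyond the outermost runs, are left out here, among them the sparse last 42 kb with 0 LOMBs. The longest of these places was chr4:765901-789900, 24 kb with 5102 tags in EHMTDD1 and 4675 in EHMT+, a ratio of 0.916 (0.88 to 0.954). It takes in the densest keeping stretch. Of the next longest, those with tags in all bins were chr4:381001-393300, with 1379 tags in EHMTDD1 and 1328 in EHMT+, and chr4:925501-936000, with 1040 and 1003 tags in that order. The ratios of these were 0.963 and 0.964, with intervals that include 1. The 95th percentile of the distance between neighbouring runs of LOMBs was 5400 bp.

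Read starts gave a count that does not depend on the extension of tags or on bins. On chromosome 4 there were 290 stretches of at least 300 bp with no read start in EHMTDD1 and at least 12 in EHMT+, and they covered 157 kb (11.9% of the length). The reverse, no read start in EHMT+ and at least 12 in EHMTDD1, was found 0 times. On the arms such stretches without EHMTDD1 covered 4.87% of the length and the reverse 0.108%. The minimum of 12 reads is reached more easily where the other library is denser. EHMT+ had 113 tags per kb on chromosome 4 and 53.3 on the arms. The shares of chromosome 4 and of the arms were therefore not compared at equal density. The median stretch on chromosome 4 was 420 bp.

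The 3 longest of these stretches held little more than the minimum of EHMT+ reads. They were chr4:340598-349028 with 18 EHMT+ reads, chr4:44015-49908 with 14 and chr4:1220038-1223104 with 13, and the first 2 of them took in 7.80 kb and 4.80 kb without a tag in either library. Next came chr4:978568-979813, with 26 EHMT+ reads in 1246 bp, and chr4:477293-478534, with 13 in 1242 bp. EHMT+ reads were densest among the 10 longest at chr4:330861-332096, with 69 reads in 1236 bp where EHMTDD1 had 0. That stretch was picked after its values were seen.

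Runs of at least 2 bins below the lower limit occurred at 2 places and were sparse. At chr4:933001-933600 there were 18 tags in EHMTDD1 and 4 in EHMT+, a ratio of 0.222 (0.0547 to 0.675). At chr4:816301-816900 there were 2 tags in EHMTDD1 and 0 in EHMT+, too few to show a difference. The other 4 bins below the lower limit stood alone and had at most 12 tags in EHMTDD1.

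In 370 of the 4407 bins neither library had a tag, and 294 of these lay in 11 stretches of at least 10 bins. The largest was the 26.4 kb at the proximal end, followed by 12.9 kb at chr4:1300201-1313100. Tags had to map to a unique position, so no level of H3K9me2 can be read from these stretches. In 68 bins EHMT+ alone had tags and in 9 bins EHMTDD1 alone did.

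Both libraries were equalized to the same total, so every count is relative to the rest of the genome. When the chromosome's own median of 1.07 was subtracted from every bin, 530 bins still exceeded the upper limit and 264 lay below the lower limit.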

How the data were processed

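H3K9me2 ChIP-seq tags of 2 libraries, 1 from EHMTDD1 and 1 from EHMT+ larvae, were used. The authors sequenced reads of 36 bp on an Illumina Genome Analyzer, aligned them to BDGP Release 5 (dm3) with at most 1 mismatch, kept unique positions, extended each read to 300 bp and drew both libraries to equal size. The deposited files hold the position and strand of each tag, 7043913 per library, with no value per tag. Which tags were drawn, and the extension, affect single bins.

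Bins of 300 bp ran from base 1 of each chromosome, and the log2 ratio was taken after adding 1 to each count. Limits were the mean plus and minus 2 SD over 384454 bins. Windows of 5 kb used tag midpoints. Ratios carry exact conditional binomial 95% intervals, which cover counting error only. Medians carry order-statistic intervals. Members, lists and rules were chosen with earlier results of these data known. The rule for named regions was the longest runs, stretches and gaps, and the windows with extreme ratios or EHMT+ counts. Functions were tested on simulated data. Alternatives covered pseudocount, tag counting, bin and window size, grid, limits, strand and scaling. No sequence was printed or analysed, because no genome of Release 5 was used here. Scripts ran in Python 3.11.15 with pandas 2.3.3 for tables, SciPy 1.17.1 for intervals, NumPy 2.4.6 for counting and Matplotlib 3.10.9 for plots.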

Additional observations from a re-analysis of the deposited data

How the results depend on the processing

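No paired analysis was possible because there was a single library of EHMTDD1 and a single one of EHMT+. Of 80 alternative values for 14 results, 53 moved by less than their interval or, for counts, by at most 1.5 times, and 27 moved further. A change of direction was checked only for the median log2 ratios, where 0 were found. The cause of a move was not tested, apart from fewer or larger bins and windows and fewer tags per bin by construction. The ratio of tag totals stayed at 1.62 to 1.63.

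With tags counted once by their midpoint, the median log2 ratio over bins was 1.36, its SD 1.48, the distal 200 kb median 1.49, the proximal and distal EHMT+ medians 28.0 and 32.0 tags, and 3 bins were below the lower limit. With 600-bp bins the median was 0.97, the SD 1.23, the distal median 0.84 and the EHMT+ medians 82.0 and 92.0 tags, with 694 bins above and 4 below the limits. With tags of 200 bp the median was 1.18, the SD 1.44, the distal median 1.25 and the EHMT+ medians 49.0 and 53.0 tags. A pseudocount of 0.5 gave an SD of 1.44. Among bins with at least 20 tags, 0 were below the lower limit. Limits of 3 SD left 682 bins above and 2 below, and subtraction of the chromosome 4 median 530 above and 264 below. Windows of 10 kb gave 45 losing and 38 keeping windows, and minus-strand tags alone gave 1 window with a log2 ratio below -0.5. With 1 library per genotype, no setting measures the variation between larvae.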
